A study of Mus musculus with 9 samples.

Results

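The response that both Stat5 knockout lines shared was described in BCR/ABLp185+ cells, which are mouse bone marrow cells transformed by a retrovirus that encodes the BCR/ABL oncogene. Genes were chosen by their counts in CPM, the reads of a gene scaled to the total of its library, and a gene belonged to the response when its CPM in each of the 6 knockout libraries lay on the same side of each of the 3 wt libraries. Of 50686 counted genes, 46381 were autosomal, and 4629 of these met the rule, 1735 with higher and 2894 with lower values in the knockout lines. The libraries came from 1 C57BL/6N line for each of the wt, Stat5a-/- and Stat5b-/- genotypes, and 3 technical replicates were sequenced from each line. All 3 lines carried the oncogene, grew in RPMI medium with serum and differed in the labels by genotype only. Every comparison therefore sets 1 line beside another and cannot separate the genotype from other differences between the lines. Library totals lay between 11948136 and 19016396 counted reads.

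STAT5A and STAT5B are closely related transcription factors that Janus kinases or BCR/ABL phosphorylate. They then pair and bind DNA at sites of the form TTCNNNGAA, and in the B lineage they carry the signal of the interleukin 7 receptor. Interferon acts in part through IRF factors, which bind repeats of GAAA, and it raises genes of antiviral defense and antigen presentation.

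Both Stat5 genes served as a check of the labels. Stat5a (ENSMUSG00000004043.14, chromosome 11 from 100859351 to 100885169) on GRCm38 had 49.5, 37.5 and 47.3 CPM in the wt, 11.3, 11.1 and 12.6 in the Stat5a-/- and 86.7, 93.1 and 75.7 in the Stat5b-/- libraries. Stat5b (ENSMUSG00000020919.11, chromosome 11 from 100780731 to 100850724) had 109.9, 108 and 111 CPM in wt, 139, 117 and 145 in Stat5a-/- and 71.98, 59.4 and 62.3 in Stat5b-/-. Each gene was thus lowest in the line that lacks it and highest in the other knockout line, so that neither met the rule. Reads remained on both genes in the line labeled as their knockout. One free-text field calls the knockout samples wt lines, against their titles and genotype labels, and the grouping followed the titles, which the levels of both genes do not contradict. The cells carried B-lineage markers, with a summed level of 10 such genes between 6789 and 10929 CPM. Of 18 myeloid markers, 15 or 16 stayed under 1 CPM in every library of a line, as did 8 or 9 of 9 erythroid markers. Of 8 NK-cell markers, 1 or 2 stayed under 1 CPM in every library of a line, and their sum ranged from 77.4 to 114 CPM in wt, from 91.1 to 116 in Stat5a-/- and from 137 to 212 in Stat5b-/- libraries. Reads of T-cell genes were also present. The sum of 22 T-cell markers, all of which passed 1 CPM in some library of each line, ranged from 1165 to 1596 CPM in wt, from 1816 to 2125 in Stat5a-/- and from 2593 to 3576 in Stat5b-/- libraries. In such bulk libraries, more cells of a type and more RNA per cell cannot be told apart.

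Of 13352 autosomal genes with enough reads to be tested, 1573 (11.8%) were higher and 2526 (18.9%) lower in every knockout library than in every wt library. These shares chose the genes and are not tests of them. With library sizes adjusted by TMM, a scaling that allows for differences in RNA composition, 2169 genes were higher and 2401 lower, so that the higher genes made up 47.5% of the response in place of 37.5%. With CPM adjusted for GC content, chosen after the data were seen, 2285 were higher and 2928 lower. List counts under either setting are to be read beside these totals, in place of 1735 and 2894 on plain CPM. On plain CPM the median gene of the Stat5a-/- line lay 0.13 lower on the log2 scale, relative to wt, than with TMM, and that of the Stat5b-/- line 0.02 lower. Levels below are plain CPM in replicates 1, 2 and 3, and log2 fold changes come from edgeR with TMM. At the edge of the rule, Vrk3 had at most 100.1 CPM in wt and at least 100.1 CPM in a knockout library, while Ints10 just missed it, with 77.6 CPM in a wt and 77.5 CPM in a knockout library. Vti1b just met it in the other direction, with at least 44.7 CPM in wt and at most 44.7 CPM in the knockout lines, and Dld just missed it, with 54.6 CPM in a library of each kind.

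The response ranged from small shifts to genes with almost no reads on one side. Its higher genes had a median log2 fold change of 0.94 in Stat5a-/- and 1.07 in Stat5b-/-, and its lower genes one of -0.49 and -0.66, against 0.01 and 0.02 over all tested genes. At least a 2-fold difference in CPM in both lines was seen for 636 higher and 956 lower genes, at least a 4-fold difference for 255 and 520, and at least a 16-fold difference for 74 and 242. In 136 higher and 331 lower genes, 1 of the lines differed from wt by less than 1.2-fold. For 20 lower genes the TMM-scaled fold change of Stat5a-/- was slightly above 0. In all, 314 of the lower and 148 of the higher genes would not reach 10 reads at the median library size in any line, so their place in the response rests on few reads. The response also held abundant transcripts. Actb, cytoskeletal actin, had 4713, 4396 and 4777 CPM in wt, 5149, 5539.6 and 5447 in Stat5a-/- and 7751, 7213 and 7926 in Stat5b-/-. Crip1, which encodes a small LIM-domain protein, had 411, 335 and 341 CPM in wt, 1397, 1599.6 and 1308 in Stat5a-/- and 1561, 2173 and 1947 in Stat5b-/-. On the lower side, Ptp4a3, a tyrosine phosphatase, had 2586, 1875 and 2227 CPM in wt, 1079, 1014 and 1430.2 in Stat5a-/- and 1186, 1026 and 780.2 in Stat5b-/-. Ybx3, a cold-shock domain protein, had 1689.9, 1748 and 1786 CPM in wt, 1088, 1012 and 1083 in Stat5a-/- and 921, 883 and 853 in Stat5b-/-.

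Some genes were nearly silent in wt cells and expressed in the knockout lines, or the reverse. With a mean of at least 10 CPM over the libraries of the higher side and under 1 CPM in every library of the other side, there were 20 such genes among the higher and 21 among the lower ones. Of the 20, 14 had a mean of at least 5 CPM in each knockout line, a limit set after the values were seen, while Ston1, 4930426D05Rik and Rbm44 had at most 1.28 CPM in any Stat5b-/- library, and 4930426D05Rik left the response with an adjustment for GC content. Cdhr2 (ENSMUSG00000034918.8, chromosome 13 from 54701461 to 54736662), a cadherin-related protein, had 0.652, 0.578 and 0.302 CPM in wt, 134, 141 and 163 in Stat5a-/- and 151, 176 and 152 in Stat5b-/-, with log2 fold changes of 8.28 in Stat5a-/- (SE 0.20) and 8.29 in Stat5b-/- (SE 0.20). The knockout lines did not differ in it beyond their spread, with a log2 fold change of 0.01 between them (95% interval -0.25 to 0.28). Tenm4, a teneurin of the cell surface, had no read in any wt library and 119 to 203 reads in a knockout library. Against a floor of 3 reads per wt library, it was at least 55.3-fold higher in Stat5a-/- and at least 68.03-fold higher in Stat5b-/-. Mgll, the lipase that splits monoacylglycerol, had at most 1 read in a wt library and 17.98, 16.8 and 24.1 CPM in Stat5a-/- and 19.2, 17.7 and 15.6 CPM in Stat5b-/-. Its low side is too thinly covered for a fold.

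Other genes were within the limit or slightly above it in wt. Scn4b, a subunit of voltage-gated sodium channels, had 1.24, 0.894 and 1.15 CPM in wt, 281, 243 and 323 in Stat5a-/- and 338, 272 and 234 in Stat5b-/-. Grb7, an adaptor that binds phosphorylated tyrosines, had 0.718, 1.31 and 1.03 CPM in wt, 94.5, 92.00 and 125 in Stat5a-/- and 214, 172 and 140.0 in Stat5b-/-. Log2 fold changes were 8.16 in Stat5a-/- (SE 0.23) and 8.04 in Stat5b-/- (SE 0.23) for Scn4b and 6.78 in Stat5a-/- (SE 0.26) and 7.42 in Stat5b-/- (SE 0.26) for Grb7, and Grb7 was higher in Stat5b-/- than in Stat5a-/- by 0.64 (edgeR adjusted p = 0.0125). Ephb4, a receptor tyrosine kinase for ephrins, rested at 0.522, 0.894 and 0.785 CPM in wt and had 49.6, 44.3 and 61.5 in Stat5a-/- and 50.8, 39.7 and 35.6 in Stat5b-/-. Plch1, a phospholipase C, had 2 to 3 reads in a wt library and 24.7, 24.4 and 25.4 CPM in Stat5a-/- and 33.4, 43.7 and 37.3 in Stat5b-/-. Hs3st2, which sulfates heparan sulfate, had 1 to 4 reads in wt and differed between the knockout lines, with 12.5, 15.9 and 17.99 CPM in Stat5a-/- and 83.99, 78.1 and 64.9 in Stat5b-/-. The edgeR log2 fold change between them was 2.18 (SE 0.17, adjusted p = 5.73e-07).

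The opposite pattern was found for receptors and regulators that wt cells expressed. Robo2 (ENSMUSG00000052516.17, chromosome 16 from 73892306 to 74411825), a receptor for SLIT ligands, had 42.7, 44.5 and 42.2 CPM in wt and at most 2 reads in any knockout library. Plxna2, a semaphorin receptor, had 67.7, 59.1 and 66.6 CPM in wt and at most 3 reads in a knockout library. Vldlr, a lipoprotein receptor, had 29.5, 31.9 and 33.4 CPM in wt and at most 2 reads in a knockout library. Gnai1, an inhibitory G-protein subunit, had 39.5, 49.9 and 42.1 CPM in wt and at most 4 reads in a knockout library. Lin28b, which blocks the maturation of let-7 microRNAs, had 8.55, 11.4 and 10.3 CPM in wt and at most 1 read in a knockout library. In these 5 genes the wt libraries were close to each other and both knockout lines were near 0. Spats2, an RNA-binding protein, kept a few reads, with 70.6, 62.00 and 68.6 CPM in wt, 0.403, 0.457 and 0.335 in Stat5a-/- and 0.341, 0.555 and 0.479 in Stat5b-/-. Bahcc1, a chromatin protein, had 52.8, 44.4 and 54.02 CPM in wt, 0.268, 0.305 and 0.335 in Stat5a-/- and 0.478, 0.139 and 0.399 in Stat5b-/-. The homeobox factors Meis2 and Pbx3 were lower as well. Meis2 had 27.8, 28.2 and 26.9 CPM in wt, 0.0671, 0.0762 and 0.335 in Stat5a-/- and 0.887, 1.11 and 0.958 in Stat5b-/-. Pbx3 had 13.8, 17.5 and 14.7 CPM in wt, 0.604, 0.457 and 0.251 in Stat5a-/- and 1.02, 0.763 and 0.559 in Stat5b-/-. Of 16 HOXA, MEIS and PBX genes, 3 were tested and 2 were among the lower genes, beside 18.9% of all tested autosomal genes.

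Rag1, named here after its values were seen, was among these 21 lower genes, and Rag2 came close to the limit with at most 1.11 CPM in a knockout library. RAG1 and RAG2 together cut the antigen-receptor loci during V(D)J recombination. Rag1 (ENSMUSG00000061311.6, chromosome 2 from 101638282 to 101649501) had 65.4, 69.8 and 66.3 CPM in wt, 0.134, 0.229 and 0.0837 in Stat5a-/- and 0.478, 0.694 and 0.878 in Stat5b-/-. Rag2 had 31.1, 39.1 and 30.9 CPM in wt, 0.134, 0 and 0.0837 in Stat5a-/- and 0.478, 1.11 and 0.479 in Stat5b-/-. All wt libraries thus lay far above the knockout libraries, in which Rag1 had 1 to 3 reads in Stat5a-/- and 7 to 11 in Stat5b-/-. At these low counts both stood above Stat5a-/- in the Stat5b-/- line, by 2.00 on the log2 scale for Rag1 (edgeR adjusted p = 0.0032) and 2.98 for Rag2 (adjusted p = 0.00553). Segments of antigen-receptor genes were in the response too. Whether their reads came from rearranged loci was not tested. Ighj2, a joining segment of the heavy chain, had at most 2 reads in wt and 36.6, 35.7 and 33.7 CPM in Stat5a-/- and 4.50, 6.87 and 7.26 in Stat5b-/-. Trgv2, a T-cell receptor gamma segment, had 72.1, 92.03 and 77.1 CPM in wt and at most 10 reads in a knockout library.

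**Figure D1:**
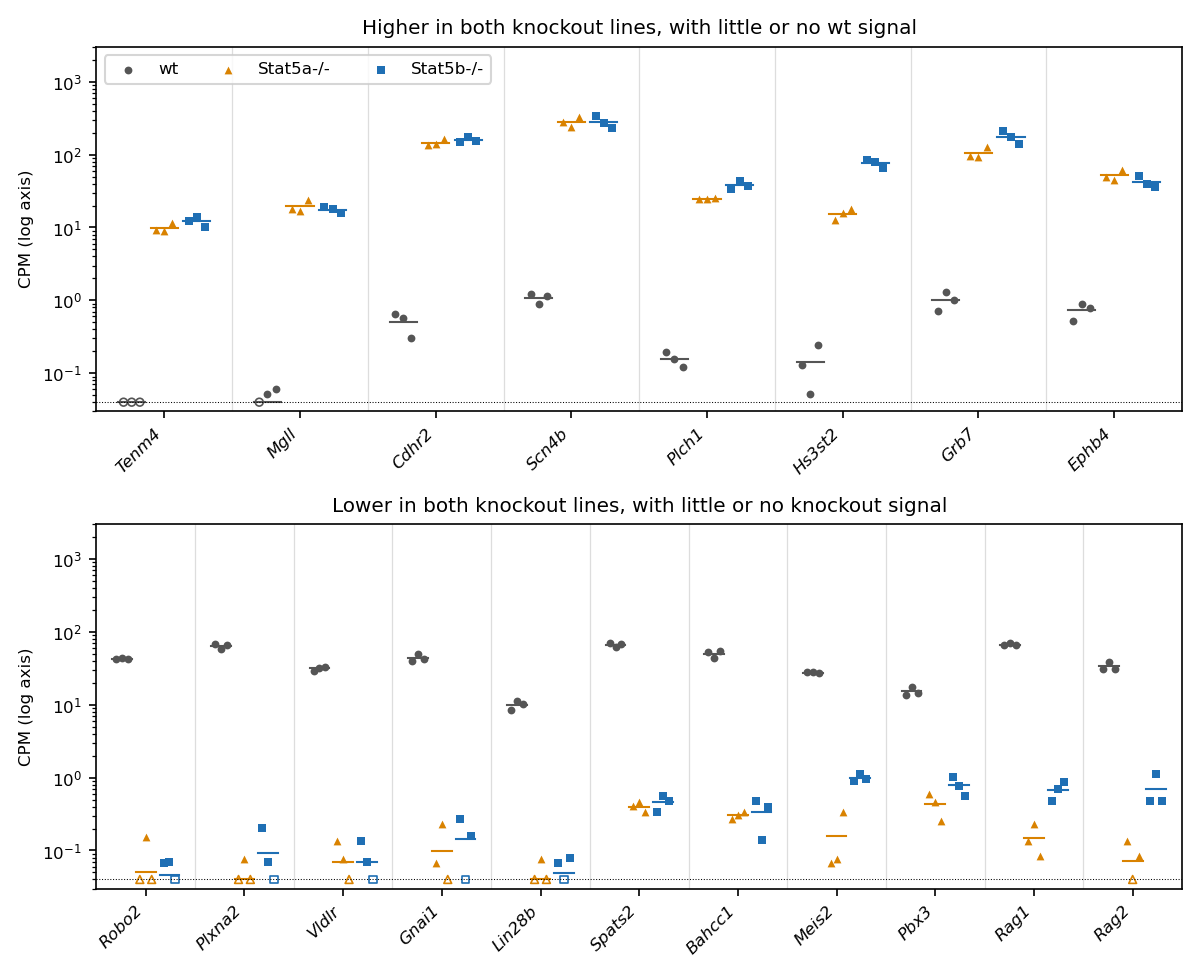
CPM (log axis) of genes with almost no signal on one side, for each of 3 wt (circles), 3 Stat5a-/- (triangles) and 3 Stat5b-/- (squares) libraries, with the mean of each line as a bar. Open symbols on the dotted line at the bottom are libraries with 0 reads, and a bar there is a mean at or below that line. In the upper panel both knockout lines lie at or above 9.07 CPM and wt at or below 1.31 CPM, and in the lower panel wt lies at or above 8.55 CPM and both knockout lines at or below 1.11 CPM.

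Some known STAT5 target genes belonged to the response, in both directions. Of 15 such autosomal genes, 3 were higher (Cish, Socs1 and Ccnd3), 3 were lower (Myc, Ccnd2 and Pim3) and 9 did not belong to the response, among them Socs2, Socs3, Pim1, Bcl2l1 and Mcl1. These shares of 20% each compare with 11.8% and 18.9% of all tested autosomal genes, so the lower share is near that of all genes and the higher one rests on 3 genes. Cish and Socs1 encode feedback inhibitors of cytokine signaling. Cish had 17.4, 13.99 and 14.8 CPM in wt, 90.2, 80.03 and 110.1 in Stat5a-/- and 38.7, 31.8 and 19.3 in Stat5b-/-, with log2 fold changes of 2.75 in Stat5a-/- (SE 0.23) and 1.00 in Stat5b-/- (SE 0.22). Stat5b-/- replicate 3 lay closest to wt. Socs1 had 19.96, 13.1 and 15.6 CPM in wt, 42.5, 48.3 and 65.7 in Stat5a-/- and 31.6, 26.1 and 22.99 in Stat5b-/-. In the comparison of the knockout lines both genes lay below Stat5a-/- in Stat5b-/-, by -1.75 for Cish (edgeR adjusted p = 4.57e-05) and -1.07 for Socs1 (adjusted p = 0.00114). Ccnd3 and Ccnd2, which encode D-type cyclins that drive entry into S phase, moved apart. Ccnd3 had 2137, 1513 and 1842 CPM in wt, 2801, 2797 and 3964 in Stat5a-/- and 3318, 3004 and 2378 in Stat5b-/-. Ccnd2 had 566, 545 and 508 CPM in wt, 439, 418 and 397 in Stat5a-/- and 324, 287 and 308 in Stat5b-/-. Their log2 fold changes were 0.94 in Stat5a-/- (SE 0.19) and 0.69 in Stat5b-/- (SE 0.18) for Ccnd3 and -0.23 in Stat5a-/- (SE 0.10) and -0.79 in Stat5b-/- (SE 0.10) for Ccnd2. With the level of T-cell receptor beta (TCRB) V segments in each library as a covariate, Ccnd3 had 1.02 in Stat5a-/- and 1.16 in Stat5b-/-. The difference between the lines passed in neither fit (edgeR adjusted p = 0.322 without and 0.798 with the covariate). The TCRB level was 19.8 to 39.2 CPM in wt, 29.2 to 37.8 in Stat5a-/- and 45.4 to 76.3 in Stat5b-/- libraries. Since Stat5b-/- did not overlap the other lines in it, the covariate cannot be told apart from the line and can take up any Stat5b-/- difference. Myc, the growth-promoting transcription factor, had 1182, 1102 and 1217 CPM in wt, 690.5, 678 and 796 in Stat5a-/- and 328, 309.9 and 259 in Stat5b-/-, with log2 fold changes of -0.55 in Stat5a-/- (SE 0.12) and -1.93 in Stat5b-/- (SE 0.13). Stat5b-/- was again below Stat5a-/- (log2 fold change -1.38, edgeR adjusted p = 2.26e-06). Pim3, a serine/threonine kinase, followed the same order, with 52.97, 37.7 and 39.2 CPM in wt, 29.7, 31.2 and 31.6 in Stat5a-/- and 21.2, 20.6 and 18.6 in Stat5b-/-.

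The sequences before the start sites of these feedback genes and of some interferon-inducible genes are given because these lists had larger shares of higher genes than all tested genes did, as described below. Only genes with a match were printed, and only the motif named for a gene was marked. Irf1 and Gbp3 have 2 windows each, of which the one with the most matches was taken. The printed genes therefore do not show how common the motifs are, for which shares follow below. They were taken from RefSeq promoter windows on GRCm38.p6, which run from 250 bases before to 50 bases after a start site, and were written 5′ to 3′ on the strand of the gene. Capitals mark TTCNNNGAA in Cish and Irf1, the interferon-stimulated response element in Socs1, Gbp3, Irgm1 and B2m, and both in Gbp7 and Igtp. The element was searched as 2 copies of GAAA with any 2 bases between them. Matches were sought on both strands and may overlap, as 2 matches do in Socs1, Gbp3 and Irgm1, and in Gbp3 and Gbp7 the interferon-type match lies on the other strand.
Cish (chr9:107296619-107296678, + strand): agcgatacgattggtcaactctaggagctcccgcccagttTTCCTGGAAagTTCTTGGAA
Irf1 (chr11:53769884-53769952, + strand): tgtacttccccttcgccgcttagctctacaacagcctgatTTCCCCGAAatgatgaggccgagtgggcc
Socs1 (chr16:10785584-10785659, - strand): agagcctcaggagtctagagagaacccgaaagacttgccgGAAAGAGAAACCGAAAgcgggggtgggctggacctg
Gbp3 (chr3:142559959-142560034, + strand): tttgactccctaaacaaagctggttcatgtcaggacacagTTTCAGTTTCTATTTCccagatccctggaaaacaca
Gbp7 (chr3:142530190-142530312, + strand): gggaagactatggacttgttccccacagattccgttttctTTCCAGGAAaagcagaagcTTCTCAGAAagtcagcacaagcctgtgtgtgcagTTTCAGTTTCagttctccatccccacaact
Igtp (chr11:58199471-58199551, + strand): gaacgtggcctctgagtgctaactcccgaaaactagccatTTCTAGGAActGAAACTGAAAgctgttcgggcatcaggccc
Irgm1 (chr11:48871421-48871490, - strand): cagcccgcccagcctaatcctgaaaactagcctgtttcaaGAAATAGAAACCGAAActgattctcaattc
B2m (chr2:122147508-122147577, + strand): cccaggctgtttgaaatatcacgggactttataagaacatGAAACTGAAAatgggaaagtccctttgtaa

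In Igtp the STAT-type match began 45 bases and the interferon-type match 34 bases before the start site, and in Gbp7 they began 106, 87 and 53 bases before it. The matches of Cish lay at its RefSeq start site, where the first began at the start base itself. The interferon element was present in 3.21% of 12031 windows of tested genes, in 4.49% of 1516 windows of higher genes and in 2.76% of 2499 windows of lower genes. Among members of the guanylate-binding protein (GBP) and immunity-related GTPase (IRG) families it was in 9 of 11 windows, and TTCNNNGAA was in 6 of 11. TTCNNNGAA was present in 6.87% of all windows of tested genes, in 7.92% of those of higher and in 6.80% of those of lower genes. Members of the interferon-stimulated list held the interferon element in 6 of 19 windows, those of class I presentation in 4 of 14 and those of class II presentation in 0 of 6. GBP and IRG genes are related copies within clusters, so their windows are not independent, and a match of letters does not show binding.

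Interferon-inducible genes stood on the higher side of the response. Of 16 GBP and IRG GTPases, which attack the vacuoles of intracellular pathogens, 12 were higher and none was lower. Of 45 interferon-stimulated genes, 22 were higher (48.9%) and none was lower, where 11.8% of tested autosomal genes were higher. With TMM scaling the numbers were 12 and 29, and with an adjustment for GC content, chosen after the data were seen, 13 and 28, with 1 interferon-stimulated gene lower. All higher autosomal genes numbered 2169 and 2285 under these settings, in place of 1735. Over all tested genes of each list, the median log2 fold changes were 1.06 in Stat5a-/- and 1.56 in Stat5b-/- for the GTPases, and 0.57 and 1.53 for the interferon-stimulated genes. Irf1 (ENSMUSG00000018899.16, chromosome 11 from 53770014 to 53778374), the interferon regulatory factor whose window holds a STAT-type match above, had 22.6, 22.6 and 22.1 CPM in wt, 42.3, 40.2 and 38.7 in Stat5a-/- and 62.97, 70.1 and 69.3 in Stat5b-/-. The libraries of each line were close together and the lines followed the order wt, Stat5a-/-, Stat5b-/-, with log2 fold changes of 0.99 in Stat5a-/- (SE 0.10) and 1.61 in Stat5b-/- (SE 0.10). Ddx58, the RNA sensor RIG-I, had 17.5, 21.9 and 20.8 CPM in wt, 28.1, 27.9 and 24.5 in Stat5a-/- and 51.9, 47.1 and 57.9 in Stat5b-/-. Adar, which edits double-stranded RNA, had 47.7, 43.8 and 46.7 CPM in wt, 56.6, 56.6 and 62.7 in Stat5a-/- and 98.8, 99.5 and 88.1 in Stat5b-/-. Trim25, a ubiquitin ligase of the RIG-I pathway, differed less from wt in Stat5b-/- than Ddx58 and Adar did. Its log2 fold changes were 0.67 in Stat5a-/- (SE 0.11) and 0.54 in Stat5b-/- (SE 0.11). Parp14, an ADP-ribosyltransferase, had log2 fold changes of 0.50 in Stat5a-/- (SE 0.11) and 1.30 in Stat5b-/- (SE 0.10).

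The knockout lines differed in strength within this group, and the rule set no order between them. Of the 22 higher interferon-stimulated genes, 17 were higher in Stat5b-/- than in Stat5a-/- at an edgeR adjusted p under 0.05, and none was lower. Over all 13852 tested genes, 16.4% were higher and 17.5% lower in Stat5b-/-. Irf1 differed by 0.63 (adjusted p = 2.04e-04), Ddx58 by 0.85 (adjusted p = 1.17e-04) and Lgals3bp, a secreted glycoprotein, by 0.84 (adjusted p = 1.77e-04), whereas Trim25 did not pass (log2 fold change -0.13, 95% interval -0.36 to 0.11). Among the 12 higher GTPases the lines split, with 7 higher and 3 lower in Stat5b-/-. Gbp3 had 15.5, 18.7 and 18.95 CPM in wt, 98.8, 90.5 and 78.8 in Stat5a-/- and 30.5, 38.2 and 40.6 in Stat5b-/-, so that Stat5a-/- lay highest. Gbp7 showed the same order, with 65.4, 84.7 and 80.4 CPM in wt, 236, 215 and 167 in Stat5a-/- and 108, 136 and 141 in Stat5b-/-. Gbp4 had the reverse order, with 19.4, 29.8 and 26.1 CPM in wt, 43.8, 37.7 and 35.9 in Stat5a-/- and 75.7, 55.4 and 81.02 in Stat5b-/-. The edgeR log2 fold changes between the knockout lines were -1.41 for Gbp3 (adjusted p = 2.23e-06), -0.80 for Gbp7 (adjusted p = 6.89e-04) and 0.74 for Gbp4 (adjusted p = 0.00397). Of the IRG genes, Igtp had 29.3, 38.8 and 38.1 CPM in wt, 66.3, 61.8 and 60.8 in Stat5a-/- and 111, 85.4 and 116 in Stat5b-/-. Irgm1 had 51.2, 62.5 and 55.2 CPM in wt, 82.8, 74.7 and 67.2 in Stat5a-/- and 114, 108 and 129 in Stat5b-/-. Ifi47 had 57.7, 76.9 and 74.8 CPM in wt, 152, 148 and 107 in Stat5a-/- and 191, 173 and 236 in Stat5b-/-. In all 3 of these Stat5b-/- exceeded Stat5a-/-, with edgeR adjusted p of 0.00329, 0.00242 and 0.037. With the TCRB covariate, 11 of the 22 interferon-stimulated genes and none of the 12 GTPases were higher in Stat5b-/- past the threshold, and the same number of GTPases, 3, were lower, where 6.45% of all tested genes were higher and 8.91% lower. Under it the difference between the lines was 0.11 for Gbp4 (edgeR adjusted p = 0.651), 0.17 for Igtp (adjusted p = 0.480), 0.27 for Irgm1 (adjusted p = 0.226) and 0.02 for Ifi47 (adjusted p = 0.969), whereas Gbp3 and Gbp7 still passed, at -1.52 and -0.97. Because this covariate cannot be told apart from the Stat5b-/- line, what these changes reflect was not tested. GBP, IRG, OAS and H2 genes and receptor segments have closely related copies, and reads that map to several places were not counted, so their levels are uncertain.

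Antigen presentation formed the next group. For MHC class I presentation, 17 of 23 genes were higher (73.9%) and none was lower, and for class II presentation 7 of 11 (63.6%) were higher and none was lower, beside 11.8% of all tested autosomal genes on the higher side. With TMM scaling 18 and 9 were higher, and with the adjustment for GC content 18 and 7, with 1 class II gene lower. B2m (ENSMUSG00000060802.8, chromosome 2 from 122147686 to 122153083), the light chain of all class I molecules, had 1498, 2053 and 1858 CPM in wt, 2979, 3229 and 2257 in Stat5a-/- and 3748, 3551 and 4667 in Stat5b-/-, with log2 fold changes of 0.79 in Stat5a-/- (SE 0.15) and 1.17 in Stat5b-/- (SE 0.16). The heavy chain H2-K1 had 291, 279.5 and 289 CPM in wt, 662, 692 and 715 in Stat5a-/- and 831, 870.5 and 875 in Stat5b-/-. H2-D1 had 191, 141 and 159 CPM in wt, 460.3, 437 and 587 in Stat5a-/- and 549, 523 and 461 in Stat5b-/-. Tap1, which moves peptides into the endoplasmic reticulum, had 60.7, 58.4 and 58.8 CPM in wt, 134, 134 and 141 in Stat5a-/- and 200.2, 207 and 213 in Stat5b-/-. It was higher in Stat5b-/- than in Stat5a-/- by 0.49 (edgeR adjusted p = 7.42e-04), while the difference did not pass for H2-K1 (0.20, unadjusted 95% interval 0.01 to 0.39, adjusted p = 0.1) or Tapbp, the tapasin gene (-0.25, -0.50 to 0.01). H2-Ab1, the beta chain of a class II molecule, had 4.70, 5.31 and 6.397 CPM in wt, 20.9, 24.1 and 29.5 in Stat5a-/- and 35.8, 35.3 and 36.1 in Stat5b-/-, with log2 fold changes of 2.32 in Stat5a-/- (SE 0.16) and 2.73 in Stat5b-/- (SE 0.16). Cd74, the invariant chain, had 97.7, 94.8 and 91.6 CPM in wt, 166, 186 and 186 in Stat5a-/- and 118, 99.7 and 119 in Stat5b-/-, where it passed the highest wt library by little, and it left the response with the adjustment for GC content.

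Position on the chromosome moved with these counts. On chromosome 17, which holds 13 of the 17 class I and 6 of the 7 class II members, 21.9% of 677 tested genes were higher and 5.02% lower in both lines, and the median log2 fold change of all its tested genes was 0.53 in Stat5a-/- and 0.14 in Stat5b-/-. Chromosomes 18 and 19 had medians of 0.43 and 0.41 in Stat5a-/- and of -0.04 and 0.03 in Stat5b-/-, with 18.2% and 19.3% of tested genes higher. Chromosome 6 had 19.9% of tested genes higher and medians of 0.09 and 0.22. On the other autosomes, between 7.10% and 13.1% were higher and between 16.2% and 24.9% were lower. The part of these shifts in the MHC result was not tested. B2m lies on chromosome 2, where 9.47% of tested genes were higher, and of the 22 interferon-stimulated and 12 GTPase members 1 each lies on chromosomes 17 to 19.

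**Figure D2:**
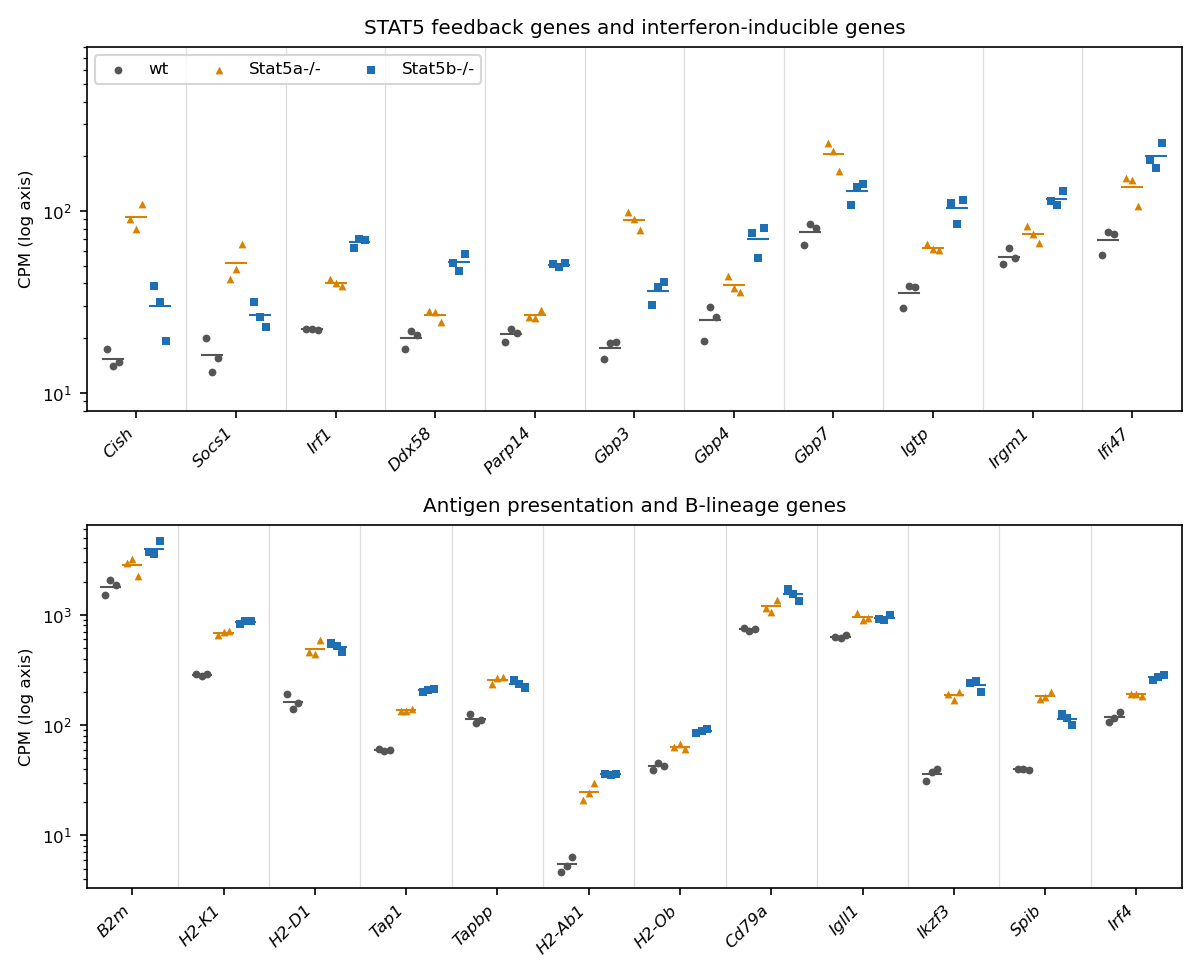
CPM (log axis) in each of 3 wt (circles), 3 Stat5a-/- (triangles) and 3 Stat5b-/- (squares) libraries, with the mean of each line as a bar, for STAT5 feedback and interferon-inducible genes (top) and for antigen presentation and B-lineage genes (bottom). All knockout libraries lie above all wt libraries, by the rule that chose the genes, and Cish, Gbp3 and Gbp7 lie highest in Stat5a-/- whereas Irf1, Ddx58 and Tap1 lie highest in Stat5b-/-.

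Of 15 autosomal genes of the pre-B-cell receptor and of recombination, 7 were higher (46.7%) and 2, the recombinase genes above, were lower (13.3%), beside 11.8% and 18.9% of all tested autosomal genes. Cd79a, a signaling chain of the receptor, had 767, 706 and 747 CPM in wt, 1157, 1062 and 1364 in Stat5a-/- and 1731, 1547 and 1337 in Stat5b-/-. Its partner Cd79b had 651, 635 and 663 CPM in wt, 1027, 931 and 1005 in Stat5a-/- and 714, 697 and 705 in Stat5b-/-. Igll1, part of the surrogate light chain, had 625, 619 and 652 CPM in wt, 1036, 895 and 931 in Stat5a-/- and 920.3, 891 and 998 in Stat5b-/-. Blnk, the adaptor below the receptor, had 567, 525 and 562 CPM in wt, 725, 788 and 768 in Stat5a-/- and 712, 862 and 810.0 in Stat5b-/-. Log2 fold changes were 0.73 in Stat5a-/- (SE 0.09) and 0.59 in Stat5b-/- (SE 0.09) for Igll1 and 0.61 in Stat5a-/- (SE 0.10) and 0.55 in Stat5b-/- (SE 0.10) for Blnk, and neither differed between the knockout lines past the threshold (-0.14, 95% interval -0.34 to 0.06, and -0.05, -0.27 to 0.16). Vpreb3, with 2099, 1839 and 2097 CPM in wt, 2245, 2574 and 2358 in Stat5a-/- and 2268, 2344 and 2118 in Stat5b-/-, did not keep its place with TMM scaling.

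Among 23 transcription factors of the B lineage, 4 were higher (17.4%), 1 was lower (4.35%), and 18 such as Pax5, Ebf1, Tcf3 and Foxo1 were outside the response, where 11.8% and 18.9% of all tested autosomal genes were higher and lower. Ikzf3, which encodes Aiolos, had 30.98, 37.5 and 39.7 CPM in wt, 189.8, 169 and 199.8 in Stat5a-/- and 240.2, 249 and 201 in Stat5b-/-, with log2 fold changes of 2.51 in Stat5a-/- (SE 0.13) and 2.70 in Stat5b-/- (SE 0.13). Spib, an ETS-family factor, had 40.3, 40.2 and 38.99 CPM in wt, 171, 179 and 199.9 in Stat5a-/- and 127, 115 and 100.5 in Stat5b-/-. Irf4, which acts at the exit from the pre-B stage, had 107, 117 and 132 CPM in wt, 193, 193 and 183 in Stat5a-/- and 256, 274 and 287 in Stat5b-/-. The knockout lines did not differ in Ikzf3 past the threshold (0.19, 95% interval -0.07 to 0.46), whereas Spib was lower in Stat5b-/- (-0.79, edgeR adjusted p = 1.72e-04) and Irf4 higher (0.41, adjusted p = 0.00554). Ikzf1, which encodes Ikaros, was the factor on the lower side, with 755, 809.8 and 825 CPM in wt, 543, 496 and 492 in Stat5a-/- and 650.0, 562 and 620.0 in Stat5b-/-. Il7r, the receptor for interleukin 7, was lower too, with 333, 425 and 409 CPM in wt, 177, 176 and 139.8 in Stat5a-/- and 288, 237 and 325 in Stat5b-/-. Its log2 fold changes were -1.10 in Stat5a-/- (SE 0.14) and -0.43 in Stat5b-/- (SE 0.13), and it was higher in Stat5b-/- than in Stat5a-/- by 0.67 (edgeR adjusted p = 0.00197). Surface genes on the higher side included Ly6a, the Sca-1 antigen, with 6.07, 7.89 and 7.91 CPM in wt, 129.8, 131 and 105 in Stat5a-/- and 37.7, 37.7 and 46.2 in Stat5b-/-, and Cd22, an inhibitory receptor of B cells, with 38.4, 36.5 and 37.3 CPM in wt, 94.5, 103 and 117 in Stat5a-/- and 50.01, 54.9 and 48.5 in Stat5b-/-. Over 17 tested surface and stage markers, 7 were higher (41.2%) and 4 lower (23.5%).

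Of the 22 T-cell markers, 8 (36.4%, against 11.8% of all tested autosomal genes) were higher in both lines and none was lower, which became 14 with TMM scaling. All higher autosomal genes rose from 1735 to 2169 with that scaling. Thy1 had 147, 182 and 172 CPM in wt, 216, 251 and 205 in Stat5a-/- and 374, 297 and 391 in Stat5b-/-, and left the response with the adjustment for GC content. The T-cell factor Tcf7 had 196, 260.2 and 240.0 CPM in wt, 318, 342 and 294 in Stat5a-/- and 573, 425 and 559 in Stat5b-/-. Lck, a SRC-family kinase, had 29.4, 40.1 and 40.01 CPM in wt, 93.1, 84.1 and 84.1 in Stat5a-/- and 221, 195 and 219 in Stat5b-/-. For 7 of the 8, Stat5b-/- was higher than Stat5a-/- past the threshold, beside 16.4% of all tested genes and 22.4% of the tested higher genes. Cd2 was the exception, with 247, 271 and 262 CPM in Stat5a-/-, 97.7, 89.9 and 107 in Stat5b-/- and 56.7, 58.3 and 56.6 in wt (log2 fold change between the knockout lines -1.52, edgeR adjusted p = 6.97e-08). The sums of T-cell markers given above followed the same order, wt, Stat5a-/-, Stat5b-/-. With the TCRB covariate, 2 of the 8 were higher in Stat5b-/- past the threshold, beside 6.45% of all tested genes. This covariate cannot be told apart from the Stat5b-/- line. Under it all 278 log2 fold changes of named genes against wt kept their sign, 5 of 139 in Stat5a-/- and 88 of 139 in Stat5b-/- moved by more than the spread between replicates, and in Stat5b-/- 20 became smaller and 7 larger by over 1.5 times. In that line Thy1 had a log2 fold change of 0.73 in place of 1.11, Tcf7 0.69 in place of 1.19, Gbp4 0.80 in place of 1.52, and B2m 0.73 in place of 1.17, and Il2rb at 0.68 and Ccr7 at 0.70 were also smaller by over 1.5 times. Of the lower genes, Ldha had -0.66 in place of -0.99, Pkm -0.62 in place of -1.04, Slc7a5 -0.44 in place of -0.83, Pim3 -0.65 in place of -1.07 and Spry4 -0.83 in place of -1.32. Irf1 stood at 1.67 in place of 1.61, while Socs1 stood at 1.27 in place of 0.76 and Il7r at -0.91 in place of -0.43.

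Of 24 cytokine receptors and Janus kinases, 10 were higher (41.7%, against 11.8% of all tested autosomal genes), 2 were lower and 12, among them Jak1, Jak2 and Il2ra, were outside the response. Il2rb, which the receptors for interleukins 2 and 15 share, had 43.6, 58.00 and 54.6 CPM in wt, 70.04, 75.8 and 61.9 in Stat5a-/- and 127, 94.8 and 131 in Stat5b-/-, and left the response with the adjustment for GC content. Il21r had 32.7, 36.8 and 37.1 CPM in wt, 48.2, 49.6 and 46.3 in Stat5a-/- and 89.3, 82.96 and 86.2 in Stat5b-/-. Jak3, the kinase bound to the common gamma chain, had 49.4, 39.2 and 43.4 CPM in wt, 52.5, 57.01 and 73.8 in Stat5a-/- and 101, 86.2 and 69.05 in Stat5b-/-. The chains of the receptor for interferon gamma moved apart, with log2 fold changes of 0.48 and 0.66 for Ifngr1 and -0.46 and -0.26 for Ifngr2 in Stat5a-/- and Stat5b-/-. Of 19 tested homing and adhesion genes, 7 were higher (36.8%) and 1 was lower. Itgal, the alpha chain of the integrin LFA-1, had 27.3, 40.3 and 39.6 CPM in wt, 239, 219 and 259 in Stat5a-/- and 282, 275 and 259 in Stat5b-/-, a log2 fold change of 2.88 in Stat5a-/- (SE 0.15) and 2.96 in Stat5b-/- (SE 0.15). Its partner chain Itgb2 had a smaller difference, with log2 fold changes of 0.60 in Stat5a-/- (SE 0.10) and 0.90 in Stat5b-/- (SE 0.10). S1pr4, a receptor for sphingosine 1-phosphate, had 20.7, 15.7 and 19.01 CPM in wt, 60.2, 60.7 and 80.9 in Stat5a-/- and 61.3, 60.9 and 52.2 in Stat5b-/-. Ccr7, a chemokine receptor of lymph node homing, had 30.1, 37.4 and 35.7 CPM in wt, 67.6, 65.9 and 63.3 in Stat5a-/- and 85.5, 60.7 and 86.3 in Stat5b-/-. Plexins, semaphorins and ROBO receptors went both ways, with 5 of 15 tested genes higher (33.3%) and 4, with Robo2 among them, lower (26.7%, against 18.9% of all tested autosomal genes). Sema4a had 32.7, 37.2 and 38.4 CPM in wt, 202, 201 and 221 in Stat5a-/- and 219, 189 and 190.4 in Stat5b-/-. The receptor Plxnb2 had 107, 83.1 and 97.5 CPM in wt, 33.1, 31.2 and 41.8 in Stat5a-/- and 1.64, 1.66 and 1.68 in Stat5b-/-, so that it was lowest in Stat5b-/-.

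The lower side of the response held genes of amino acid supply, glycolysis and ribosome production, and no gene of these 3 lists was higher in both lines. Of 22 tested autosomal serine, folate and ATF4 genes, 15 were lower (68.2%), of 21 ribosome biogenesis genes 13 were lower (61.9%), and of 21 glycolysis genes 10 were lower (47.6%), where 18.9% of tested autosomal genes were lower. With TMM scaling 13, 9 and 7 were lower, and 1 glycolysis gene was higher. ATF4 is the transcription factor of the amino acid response. Atf4 had 1011, 966 and 1031 CPM in wt, 678, 641 and 681 in Stat5a-/- and 615, 592 and 572 in Stat5b-/-, with log2 fold changes of -0.45 in Stat5a-/- (SE 0.09) and -0.73 in Stat5b-/- (SE 0.09). Psat1, an enzyme of serine synthesis, had 494, 494 and 582 CPM in wt, 214, 215 and 199 in Stat5a-/- and 203, 237 and 279 in Stat5b-/-. Its log2 fold changes were -1.18 in Stat5a-/- (SE 0.11) and -1.11 in Stat5b-/- (SE 0.11), and the knockout lines did not differ past the threshold (0.07, 95% interval -0.17 to 0.32). Asns, asparagine synthetase, had 496, 457 and 442 CPM in wt, 306, 331 and 301 in Stat5a-/- and 228, 293 and 318 in Stat5b-/-. Slc3a2, a chain of the carriers for large neutral amino acids, had 672, 600.0 and 628 CPM in wt, 375, 387 and 413 in Stat5a-/- and 311, 342 and 343 in Stat5b-/-. Its partner Slc7a5 had 1714, 1283 and 1439 CPM in wt, 982, 1013 and 1184 in Stat5a-/- and 901, 851 and 700.4 in Stat5b-/-. Slc7a5 and Shmt2, a mitochondrial enzyme of folate metabolism, did not keep their place with TMM scaling.

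Ldha, lactate dehydrogenase, had 814, 668 and 759 CPM in wt, 474, 488 and 544 in Stat5a-/- and 324, 392 and 389.9 in Stat5b-/-, with log2 fold changes of -0.43 in Stat5a-/- (SE 0.11) and -0.99 in Stat5b-/- (SE 0.11). Slc2a1, the glucose carrier GLUT1, had 134, 113 and 122 CPM in wt, 83.5, 76.4 and 93.6 in Stat5a-/- and 74.4, 69.2 and 56.3 in Stat5b-/-. In 9 of the 10 lower glycolysis genes, Stat5b-/- was lower than Stat5a-/- at an edgeR adjusted p under 0.05, beside 17.5% of all tested genes and 22.7% of the tested lower genes, among them Ldha (-0.56, adjusted p = 0.0021), Aldoa (-0.81, adjusted p = 4.96e-04), Pkm (-0.75, adjusted p = 5.13e-04) and Eno1 (-1.08, adjusted p = 3.01e-06). With the TCRB covariate 3 of the 10 passed, beside 8.91% of all tested genes, and the differences were -0.28 for Ldha (edgeR adjusted p = 0.228), -0.48 for Aldoa (adjusted p = 0.0942), -0.40 for Pkm (adjusted p = 0.0892) and -0.90 for Eno1 (adjusted p = 9.11e-04). The covariate cannot be told apart from the Stat5b-/- line, as given above. Aldoa, Pkm and Eno1 lost their place in the response with TMM scaling, where their log2 fold changes in Stat5a-/- were -0.33, -0.29 and -0.14. Of the ribosome biogenesis genes, Nop2, an RNA methyltransferase of the nucleolus, had 259, 231 and 244 CPM in wt, 153, 135 and 175 in Stat5a-/- and 147, 147 and 129 in Stat5b-/-. Npm1, nucleophosmin, had 457, 531 and 476 CPM in wt, 326, 376 and 246 in Stat5a-/- and 197, 220.4 and 298 in Stat5b-/-, and 5 of the 13 lower genes were lower in Stat5b-/- than in Stat5a-/-, none of them with the TCRB covariate. Oxidative phosphorylation had 6 of 22 genes lower and cholesterol biosynthesis 4 of 22, which are shares of 27.3% and 18.2% beside 18.9% of all tested autosomal genes and became 4 and 2 genes with TMM scaling.

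**Figure D3:**
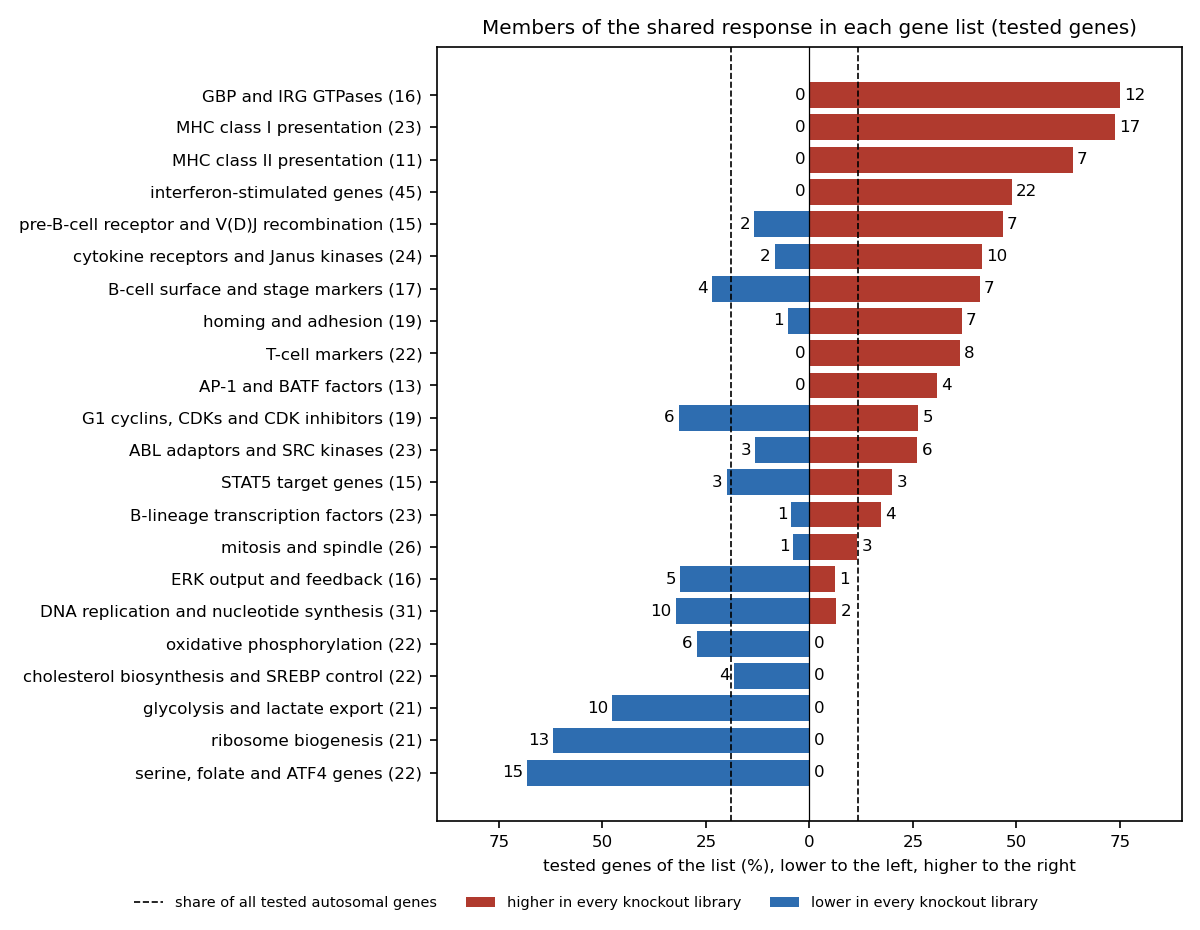
Share of the tested genes of 22 lists (number in parentheses) that were higher (right) or lower (left) in every knockout library than in every wt library, in percent, with the number of genes at each bar. Dashed lines mark the share among all tested autosomal genes, 11.8% higher and 18.9% lower. Interferon-inducible and antigen-presentation lists reach furthest to the right among the lists drawn, and serine, ribosome and glycolysis lists furthest to the left.

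Genes of the cell cycle did not move as 1 group, and their shares are to be read beside the 11.8% higher and 18.9% lower of all tested autosomal genes. Of 19 tested G1 genes, 5 were higher (26.3%) and 6 lower (31.6%). Cdk4 and Cdk6, the kinases that D-type cyclins activate, were lower. Cdk6 had 519.9, 554 and 578 CPM in wt, 294, 283 and 264 in Stat5a-/- and 401, 451 and 399 in Stat5b-/-. Cdk4 had 991, 896 and 950.2 CPM in wt, 653, 620.4 and 645 in Stat5a-/- and 702, 792 and 798 in Stat5b-/-. E2f2, a transcription factor of S-phase genes, was higher, with 125, 99.1 and 116 CPM in wt, 212, 191 and 261 in Stat5a-/- and 349.9, 304 and 239.8 in Stat5b-/-. Of 31 genes of DNA replication and nucleotide synthesis, 2 were higher (6.45%) and 10 lower (32.3%). Of the subunits of the replicative helicase, Mcm2 was higher (log2 fold changes 0.67 and 0.71 in Stat5a-/- and Stat5b-/-), while Mcm3 (-0.22 and -0.12) and Mcm4 (-0.11 and -0.31) were lower on plain CPM and kept their place neither with TMM scaling nor with the adjustment for GC content. The replication factor Mcm10 was lower (-0.48 and -0.41). Of 26 mitosis genes, 3 were higher (11.5%) and 1 was lower (3.85%). Mki67, the Ki-67 antigen, had 1067, 1347 and 1385 CPM in wt, 1685, 1638 and 1458 in Stat5a-/- and 1561, 2280.0 and 2247 in Stat5b-/-. In the MYC network, Mycn was higher and Myc, as above, lower, among 2 higher (16.7%) and 4 lower (33.3%) of 12 genes. Mycn had 69.99, 69.1 and 73.1 CPM in wt, 144, 135 and 177 in Stat5a-/- and 171, 176 and 132 in Stat5b-/-. Mxd3, a partner of MAX that opposes MYC, had 21.8, 17.8 and 19.1 CPM in wt, 24.9, 25.2 and 28.6 in Stat5a-/- and 53.1, 61.3 and 52.04 in Stat5b-/-.

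Of 16 output and feedback genes of the ERK pathway, 5 were lower (31.3%, against 18.9% of all tested autosomal genes), 1 was higher and 10, such as Dusp6 and Egr1, were outside the response. Spred1, an inhibitor of RAS signaling, had 178, 196 and 185 CPM in wt, 94.1, 92.2 and 84.4 in Stat5a-/- and 98.2, 101 and 107 in Stat5b-/-. Spry4, a Sprouty inhibitor, had 35.8, 27.2 and 29.5 CPM in wt, 6.98, 6.402 and 8.20 in Stat5a-/- and 11.6, 13.9 and 10.7 in Stat5b-/-. Etv5, an ETS factor downstream of ERK, had 200.5, 172 and 185 CPM in wt, 113, 114 and 128 in Stat5a-/- and 108, 118 and 88.5 in Stat5b-/-. Log2 fold changes were -0.91 in Stat5a-/- (SE 0.09) and -0.85 in Stat5b-/- (SE 0.09) for Spred1 and -1.96 in Stat5a-/- (SE 0.16) and -1.32 in Stat5b-/- (SE 0.16) for Spry4. The related Spry1 went the other way, with 18.4, 15.8 and 19.4 CPM in wt, 39.2, 36.7 and 44.9 in Stat5a-/- and 37.3, 36.97 and 32.9 in Stat5b-/-. Both partners of the oncogene were counted higher. Abl1 had 287, 241 and 249 CPM in wt, 378, 349.5 and 469.9 in Stat5a-/- and 899, 894 and 689.6 in Stat5b-/-. Bcr had 189, 145 and 173 CPM in wt, 222, 202 and 304 in Stat5a-/- and 540.2, 459.8 and 305 in Stat5b-/-. Whether reads of the BCR/ABL construct were counted on these genes was not tested. Of 23 ABL adaptors and SRC kinases, 6 were higher and 3 lower, which became 8 and 2 with TMM scaling. The remaining lists gave smaller groups, again beside 11.8% higher and 18.9% lower of all tested autosomal genes. Of 23 Polycomb, DNA methylation and TET genes 3 were higher (13.04%) and 7 lower (30.4%), and of 20 NF-kappaB genes 4 were higher (20%) and 1 was lower (5%). AP-1 and BATF factors had 4 of 13 higher (30.8%), the BCL2 family 3 of 13 (23.1%) and regulators of G-protein signaling 3 of 10 (30%), and none was lower. Shares near those of all genes were found for 19 p53 genes, with 3 higher (15.8%) and 4 lower (21.1%), and for 19 lysosome genes, with 3 (15.8%) in each direction. Receptor tyrosine kinases had 1 higher and 2 lower of 7. With the adjustment for GC content, 7 mitosis, 6 Polycomb and 5 p53 genes were higher in place of 3 each, 6 lysosome genes were lower in place of 3, 3 AP-1 and BATF factors and 1 regulator of G-protein signaling were lower in place of none, and 2 B-lineage factors were lower in place of 1. Over all autosomal genes, 2285 were then higher in place of 1735 and 2928 lower in place of 2894, and the list counts are to be read beside these totals.

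**Figure D4:**
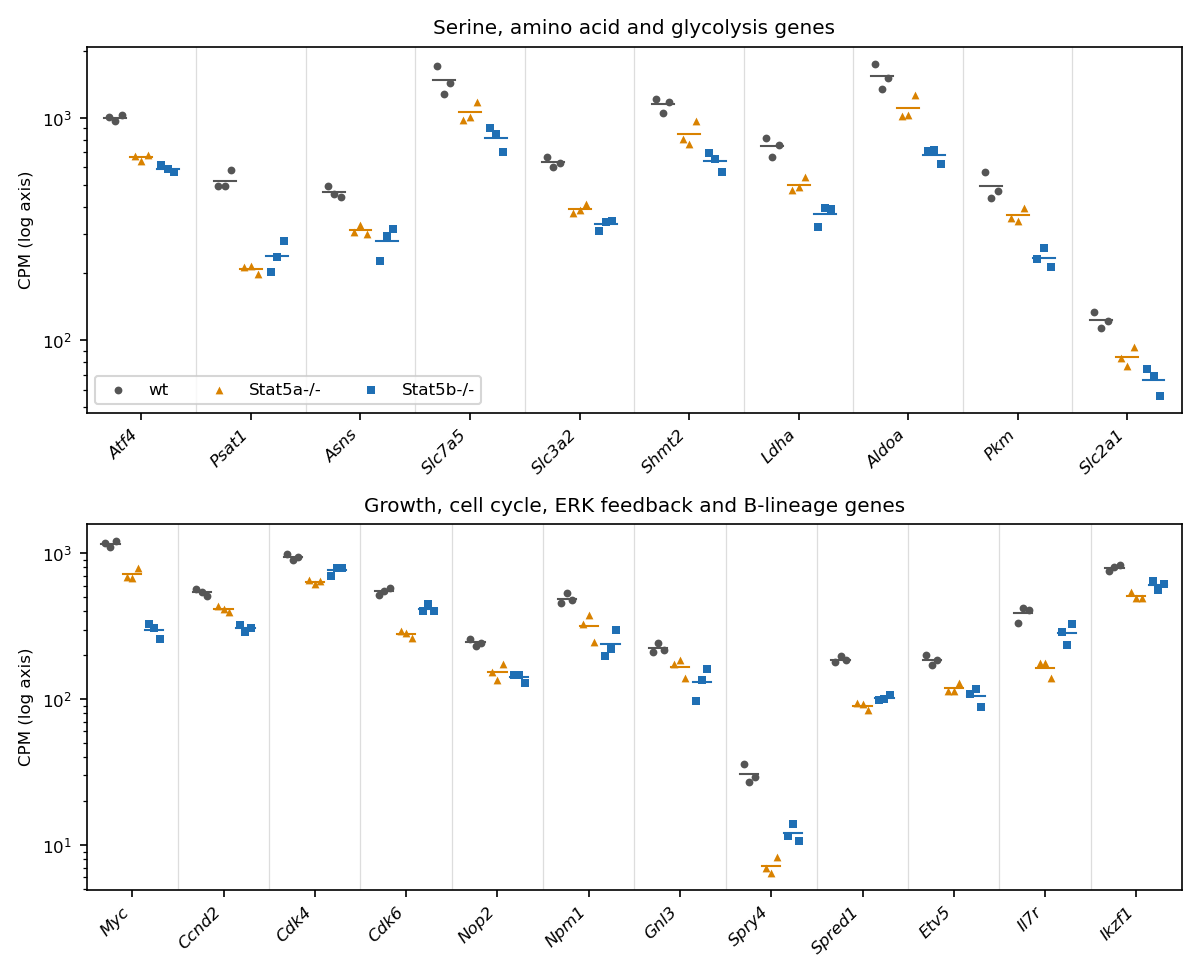
CPM (log axis) in each of 3 wt (circles), 3 Stat5a-/- (triangles) and 3 Stat5b-/- (squares) libraries, with the mean of each line as a bar, for amino acid and glycolysis genes (top) and for growth, cell cycle, ERK feedback and B-lineage genes (bottom). All knockout libraries lie below all wt libraries, by the rule that chose the genes, and Ldha, Pkm and Myc lie lowest in Stat5b-/- whereas Cdk6, Spry4 and Il7r lie lowest in Stat5a-/-.

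The knockout lines were then compared with each other within the shared response. The rule set no order between the lines, but it used the values of both on plain CPM, where Stat5a-/- lay lower than with TMM by more than Stat5b-/- did, so the counts in each direction depend on the scaling that chose the members. Of the 1573 tested higher genes, 352 (22.4%) were higher in Stat5b-/- and 291 (18.5%) were higher in Stat5a-/- at an edgeR adjusted p under 0.05, against 16.4% and 17.5% of all tested genes, and 930 did not pass. Of the 2526 tested lower genes, 573 (22.7%) were lower still in Stat5b-/- and 225 (8.91%) were higher, and 1728 did not pass. The median difference between the lines was 0.06 on the log2 scale for the higher and -0.14 for the lower genes. The 95% interval of the difference lay within 0.5 of 0 on the log2 scale for 460 (29.2%) higher and 951 (37.8%) lower genes, against 27.5% of all tested genes. More than 2-fold differences past the threshold were found for 89 higher genes upward and 108 downward in Stat5b-/-, and for 210 lower genes downward and 96 upward. Over all 13852 tested genes, 666 passed that limit upward and 914 downward. With the level of TCRB V segments as a covariate, 162 higher genes passed upward and 165 downward, and 282 lower genes passed downward and 120 upward, where 6.45% of all tested genes passed upward and 8.91% downward. Of the genes described above, Socs1 (edgeR adjusted p = 0.198), Grb7 (adjusted p = 0.331), Il7r (adjusted p = 0.292) and Irf4 (adjusted p = 0.137) no longer passed with it. The covariate cannot be told apart from the Stat5b-/- line. With members chosen by TMM-scaled CPM, 472 higher genes passed upward and 303 downward, and 435 lower genes passed downward and 224 upward, and with the adjustment for GC content in the fit the numbers were 525, 307, 667 and 321, beside 24.2% of all tested genes upward and 19.4% downward. Without chromosomes 17, 18 and 19, 321 higher genes passed upward and 190 downward.

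Some genes with large differences between the lines lay much farther from wt in 1 of them, whereas others, such as Rag1, Meis2 and Hs3st2 above, lay far from wt in both. Ifi30, a lysosomal thiol reductase that interferon gamma induces, had 9.85, 11.6 and 12.1 CPM in wt, 31.2, 33.3 and 28.9 in Stat5a-/- and 190.3, 183 and 186 in Stat5b-/-. Pear1, a receptor of the EGF-repeat family, had 1.83, 1.998 and 1.33 CPM in wt, 10.4, 10.7 and 16.2 in Stat5a-/- and 117, 110.2 and 73.8 in Stat5b-/-. Both were thus higher in each knockout library than in wt, and far higher in Stat5b-/-. Sox6, an SRY-related transcription factor, had 0.261, 0.105 and 0.241 CPM in wt, 68.7, 71.6 and 65.8 in Stat5a-/- and 3.82, 4.02 and 2.79 in Stat5b-/-. Col5a3, a collagen chain, had 2.54, 1.89 and 2.17 CPM in wt, 97.01, 100.4 and 122 in Stat5a-/- and 4.98, 5.13 and 4.07 in Stat5b-/-. On the lower side, Grb10, an adaptor of receptor tyrosine kinases, had 95.5, 100.4 and 98.6 CPM in wt, 62.7, 62.5 and 55.5 in Stat5a-/- and 0.546, 0.694 and 0 in Stat5b-/-. Rbpms, an RNA-binding protein, had the reverse pattern, with 61.9, 54.4 and 62.5 CPM in wt, 0.403, 0.838 and 0.502 in Stat5a-/- and 39.8, 37.3 and 39.3 in Stat5b-/-. Eya1, a transcriptional cofactor, had 21.3, 22.03 and 22.3 CPM in wt, 0.201, 0.152 and 0.251 in Stat5a-/- and 15.1, 19.6 and 19.2 in Stat5b-/-. These genes meet the rule for a shared response although the lines differed in them by more than 2-fold.

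**Figure D5:**
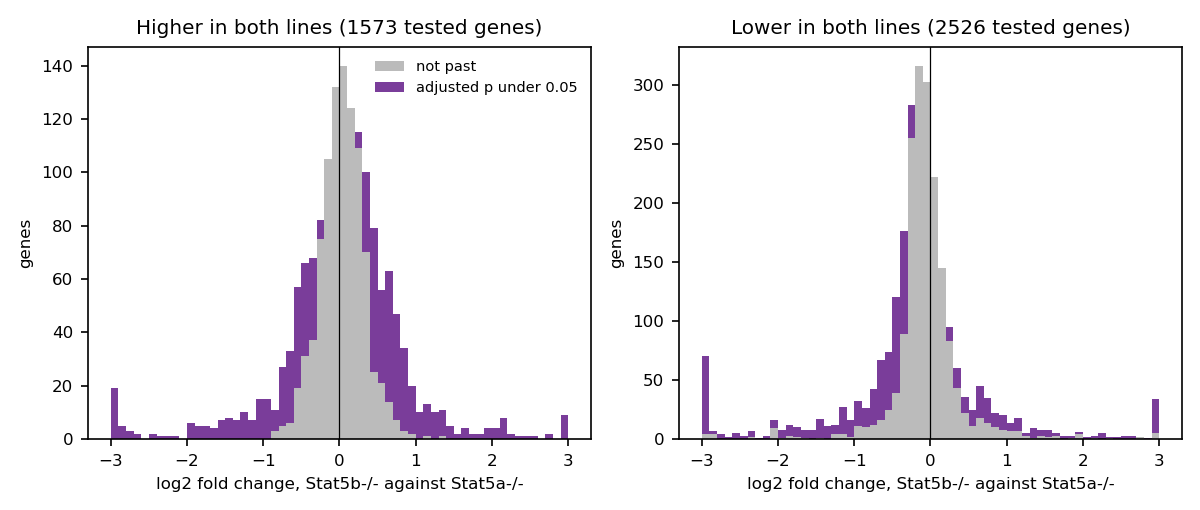
Number of genes (vertical axis) by the log2 fold change of Stat5b-/- against Stat5a-/- in bins of 0.1 (horizontal axis), for the 1573 tested genes higher (left) and the 2526 lower (right) in both knockout lines than in wt. Purple marks genes past an adjusted p of 0.05, gray the others, and the outermost bars hold all genes beyond 3 or -3. The medians are 0.06 on the left and -0.14 on the right.

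The members also differed in features that the rule did not use. The median GC content of transcripts was 52.8% for the tested higher genes, 50.4% for the lower genes and 50.4% for all tested genes, and their median lengths were 4003, 3839.5 and 3632.5 bases. Libraries of 1 line deviated from their mean in step with GC content, and the correlation across genes reached 0.585 in absolute value. With CPM adjusted for GC content in each library, 1658 (95.6%) of the higher and 2507 (86.6%) of the lower genes kept their place, and 2285 genes were higher and 2928 lower in all. Protein-coding genes made up 90.4% of the tested higher and 91.8% of the tested lower genes, against 81.9% of all tested genes.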

How the data were processed

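Polyadenylated RNA of 9 libraries, 3 technical replicates of 1 line per genotype, was sequenced as single-end reads. The authors trimmed reads with Trimmomatic, aligned them with STAR and deposited read counts per GENCODE M13 gene on GRCm38, made with featureCounts 1.5.1 per the file headers. Reads with several alignments were not counted and strand was not used, so overlapping genes cannot be told apart. The headers place all libraries on the same flow cell lane. Chi-square values per degree of freedom between replicates of a line were 5.07 to 31.8, above those of counting error alone.

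Counts were divided by library totals (CPM) to find the members by strict inequality on chromosomes 1 to 19. Genes that passed filterByExpr, 13852 in all, were fitted in edgeR 4.0.16 (R 4.3.3) with TMM factors, all 9 libraries and quasi-likelihood F tests. Since the rule used the values against wt, only Stat5b-/- against Stat5a-/- is given as a test, with Benjamini-Hochberg adjustment over 13852 genes and a threshold of 0.05. P-values measure the spread between technical replicates. DESeq2 1.42.0 and the other alternatives are given in the closing section. The procedure was checked on simulated counts. The response and the gene lists were chosen with earlier results of these data known. Named genes were the members with the largest differences in both lines or between them, up to 6 members of each list with the highest CPM, the 10 most abundant members in each direction, both Stat5 genes, and those nearest the limit of the rule. Genes were matched by symbol to RefSeq promoter windows of GRCm38.p6, which held 9444 of the 13852 tested genes.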

Additional observations from a re-analysis of the deposited data

Results flagged for a closer look

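The knockout lines differed within the shared response, by the edgeR test of Stat5b-/- against Stat5a-/- that is described above. Past an adjusted p of 0.05, 352 of the genes higher in both lines were higher and 291 were lower in Stat5b-/-, and 573 of the genes lower in both lines were lower and 225 were higher in Stat5b-/-. Of all tested genes, 16.4% were higher and 17.5% lower in Stat5b-/-. Each named gene that passed this test with more than a 2-fold difference between the lines is given here with its log2 fold change, and groups of 3 libraries were not examined for single outlying libraries.

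Some genes nearly disappeared from 1 line, and their fitted values depend on the small count that edgeR adds. On the lower side of the response, Bicd1 had a fitted value of -8.17 with 0 to 1 reads in a Stat5b-/- library against 158 to 237 in Stat5a-/-, Grb10 had -7.21 with 0 to 10 reads, and Trgj4 had -7.11 with no read in Stat5b-/-. Elfn1 had -6.74, with 20.1, 20.6 and 25.9 CPM in Stat5a-/- and 0.136, 0.347 and 0.160 in Stat5b-/-. Plxnb2 differed by -4.52. The reverse was found for Eya1 at 6.31, Rbpms at 5.94, Plscr1, a phospholipid scramblase, at 5.71, Sox15 at 5.48 and Kif13a, a kinesin, at 4.97, all of which were lowest in Stat5a-/-. Plscr1 had 28.7, 23.4 and 25.4 CPM in wt, 0.201, 0.152 and 0.167 in Stat5a-/- and 12.01, 9.43 and 9.50 in Stat5b-/-.

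On the higher side, genes that stood out in Stat5a-/- were Ston1 at -7.20, 4930426D05Rik at -5.89, Col5a3 at -4.60, Sox6 at -4.38, Rbm44 at -4.31 and Ighj2 at -2.63. Those that stood out in Stat5b-/- were Tmem132e at 3.70, Sipa1l2 at 3.46, Atp2b4, a calcium pump, at 3.12, Pear1 at 2.91, Ifi30 at 2.47 and Hs3st2 at 2.18. Atp2b4 had 3.13, 2.73 and 3.62 CPM in wt, 5.17, 7.01 and 7.45 in Stat5a-/- and 66.3, 64.9 and 51.9 in Stat5b-/-.

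Among the genes of the lists, Cish differed by -1.75, Ly6a by -1.70, Cd2 by -1.52, Dusp5 by -1.49, Gbp3 by -1.41, Myc by -1.38, Cd22 by -1.15, Eno1 by -1.08, Socs1 by -1.07 and Bst1 by -1.01, and all of these were lower in Stat5b-/-. The genes higher in Stat5b-/- were Lat at 1.14, Lck at 1.17, Rag1 at 2.00, Meis2 at 2.54 and Rag2 at 2.98. Rag1, Rag2 and Meis2 had at most 1.11 CPM in any knockout library.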

How the results depend on the processing

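Leaving out each library in turn gave 1831 to 2203 higher and 3047 to 3763 lower genes, and from 269 to 361 (higher in both lines, higher in Stat5b-/-), 243 to 293 (higher, lower), 466 to 564 (lower, lower) and 173 to 215 (lower, higher) genes past the test between the lines. The numbers of higher and lower genes could not fall below 1735 and 2894 here, since the rule with fewer libraries keeps every member. Asking also for at least a 2-fold difference in each line left 636 higher and 956 lower genes. Asking also for an edgeR adjusted p of 0.05 in both lines against wt, a limit that draws on the same values as the rule and is no test of it, left 1404 higher and 1405 lower genes. With RLE library sizes 2069 genes were higher and 2547 lower. With an adjustment for GC content, chosen after seeing the data, 2285 were higher and 2928 lower. In the order given for the test between the lines, a limit of 1 on the absolute log2 fold change left 89, 108, 210 and 96 genes. Over all 13852 tested genes that limit left 666 higher and 914 lower in Stat5b-/-. The level of T-cell receptor beta (TCRB) V segments as a covariate left 162, 165, 282 and 120, and 893 higher and 1234 lower over all tested genes. That covariate cannot be told apart from the Stat5b-/- line. Without chromosomes 17, 18 and 19, also chosen after seeing the data, the genes higher in both lines and lower in Stat5b-/- numbered 190. The cause was not tested in any of these cases. DESeq2 gave 349, 308, 625 and 225 genes. Replicate numbers are shared between the lines. Same-numbered libraries had a mean correlation of deviations of -0.111 (9 pairs, -0.559 to 0.291), which shows no positive pairing. The mean of the other 18 pairs, 0.0553, largely follows from it, since deviations were taken from the mean of each line. With the replicate number as a block, 295, 247, 476 and 192 genes passed. With 3 technical replicates of 1 line each, no setting measures the spread between independently made lines, and genes under 10 reads rest on counting error.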
